A study of Mus musculus with 4 samples.

Results

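The genes examined here were 41 interferon-stimulated genes, a set of targets and signalling genes of type I and type II interferon that was picked by gene symbol. Of the 41 symbols, 40 were matched to an entry in the liver expression table, which holds 22103 entries. Mx2 was not analysed here. A mean of at least 0.1 FPKM (fragments per kilobase of transcript, scaled to the number of mapped reads) over the 4 livers was reached by 39 of the members, which were tested together with all 12346 genes that reached it.

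Whole livers of 4 mice, 2 WT and 2 Brg1 LKO, gave 1 RNA library each, named WT 1, WT 2, LKO 1 and LKO 2 after the replicate numbers in the sample labels. In the LKO mice the Smarca4 f/f alleles, which encode Brg1, the ATPase of the SWI/SNF chromatin remodelling complex, are deleted by Alb-Cre, whose albumin promoter is active in hepatocytes, so the other cells of the liver keep the gene. The WT mice were littermates, and whether they carry the floxed alleles is not given in the sources used here. All 4 mice drank alcohol, for 15 days according to the sample labels, in the NIAAA model of chronic ethanol feeding plus a single binge, which the study ran in 8-week-old male mice. No liver without ethanol was analysed here, so the comparison is of genotype alone under ethanol.

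Interferons are secreted proteins, and those of type I are released by cells that sense foreign or misplaced nucleic acid. Type I interferon signals through the Ifnar1 and Ifnar2 chains and the kinases Jak1 and Tyk2 to a complex that holds Stat2 and Irf9, which binds the interferon-stimulated response element, while interferon-gamma signals through Ifngr1 and Ifngr2 and acts on genes that carry the gamma-activated site. The target genes encode antiviral effectors, nucleic acid sensors and the factors that amplify the response, and in liver they are expressed by hepatocytes as well as by Kupffer cells, the resident macrophages, and by endothelial cells.

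The promoters of 5 members show the elements through which interferon acts on such genes. They were picked for the patterns described below. Isg15, Oas1a and Ifit1 had wide gaps between the LKO livers. Gbp3 had both LKO livers above the WT livers, though LKO 1 only barely, and Irf1 had LKO 2 within the WT values. Irf7 and Irf9 also had wide gaps between the LKO livers. Their windows of 120 bases held no match and are not shown, so a wide gap did not always go with a match in these windows. The annotated Irf9 gene begins upstream of both its windows, and the Irf7 window partly overlaps the annotated gene. Whether these genes have an element elsewhere was not tested. The windows are the 120 bases before the RefSeq transcription start, 5′ to 3′ on the strand of the gene, from RefSeq on GRCm38.p6. Gbp3 and Irf1 have 2 RefSeq starts each, of which the upstream one is shown, and the 120 bases before the other start held no match in either gene. Capitals mark matches to the core of the interferon-stimulated response element, which is GAAA, any 2 bases and GAAA again (TTTC, any 2 bases and TTTC on the other strand), and to the gamma-activated site, TTCNNNGAA, which reads the same on both strands.
Isg15 (chr4:156200819-156200938, minus strand): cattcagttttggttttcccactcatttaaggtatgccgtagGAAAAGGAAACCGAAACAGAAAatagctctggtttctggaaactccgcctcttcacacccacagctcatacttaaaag
Oas1a (chr5:120907526-120907645, minus strand): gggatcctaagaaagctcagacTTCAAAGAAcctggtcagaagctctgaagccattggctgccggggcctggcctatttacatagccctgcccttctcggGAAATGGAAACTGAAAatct
Ifit1 (chr19:34640769-34640888, plus strand): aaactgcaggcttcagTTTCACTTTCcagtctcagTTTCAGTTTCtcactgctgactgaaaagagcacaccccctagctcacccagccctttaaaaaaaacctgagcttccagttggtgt
Gbp3 (chr3:142559924-142560043, plus strand): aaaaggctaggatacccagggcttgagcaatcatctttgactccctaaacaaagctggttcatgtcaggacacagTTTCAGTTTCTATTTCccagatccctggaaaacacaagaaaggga
Irf1 (chr11:53769894-53770013, plus strand): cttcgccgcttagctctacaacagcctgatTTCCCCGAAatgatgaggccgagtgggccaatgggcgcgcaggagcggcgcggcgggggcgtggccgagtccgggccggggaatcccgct
The Isg15 window holds 3 overlapping response elements in 1 run, and the Ifit1 window holds 2 on the opposite strand, separated by 9 bases. Oas1a has a gamma-activated site further upstream and a pair of overlapping response elements close to the start. Gbp3 has an overlapping pair on the opposite strand, and Irf1 has a gamma-activated site and no response element in this window.

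Promoters were found in the RefSeq table for 31 of the members. A match to the response element in either strand of the 250 bases before the start was present in 15 of the 31, or 48.4%, against 3.46% of all 27025 genes in that table. The gamma-activated site was present in 8 members, or 25.8%, against 8.13% of all genes. Both were present in 5 members, Oas1a, Bst2, Gbp7, Igtp and Irgm2, and in Bst2 they overlapped. These shares describe the set as chosen, since genes enter such a set for their response to interferon, and 13 of the 31 had neither run of letters in the window.

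The comparison between the genotypes asks which liver transcripts differ when hepatocytes lack Brg1. Smarca4 itself had 1.78 and 1.95 FPKM in WT 1 and WT 2 and 0.608 and 0.579 FPKM in LKO 1 and LKO 2, a log2 fold change of −1.50 ± 0.34 (SE, limma, unadjusted p = 0.000548, adjusted p = 1). Both LKO livers had thus lost a like share of the targeted transcript, with a difference of 0.06 on the log2 scale between them. The FPKM values stepped with the value of 1 read, from which total depths of 72586000 to 80912200 reads were estimated, and the read numbers given below for single genes are estimates from the same steps. The expression profiles of the 4 livers correlated with Pearson's r of 0.967 (LKO 1 with LKO 2) to 0.985 (WT 1 with WT 2) across genes, which are not independent replicates.

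No member of the interferon set differed between LKO and WT livers at the threshold of the study, set at an unadjusted p below 0.05 together with more than a 2-fold change in either direction. The count was 0 of 39, and over all genes tested 121 of 12346, or 0.98%, passed. By limma, 0 of the 39 members had an unadjusted p under 0.05 either, against 247 of all genes, and the lowest p of a member was 0.0511, for Zbp1. After Benjamini-Hochberg adjustment the lowest p of a member was 1, and 0 genes of the whole table had an adjusted p under 0.05. An exact permutation test of 2 livers against 2 cannot go below a two-sided p of 0.333, so the limma p-values rest on a spread shared across genes.

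On the log2(FPKM + 0.1) scale, the mean of the LKO livers was above that of the WT livers in 29 of the 39 members and below it in 10. Over all 12346 genes tested it was above in 5696 and below in 6650. Counts of members with a higher LKO mean are on this scale throughout. In FPKM the order can differ, as in Ifit3, with means of 0.474 FPKM in WT and 0.557 FPKM in LKO livers. The median log2 fold change was 0.25, beside −0.02 over all genes tested. A pseudocount of 1 brought the members' median to 0.13, and it came to 0.15 over the 25 members with a mean of at least 1 FPKM. Single members ranged from −0.38 for Irf1 to 0.91 for Oas2, with SEs of 0.33 to 0.58. Both LKO values lay above both WT values in 5 members, Ddx58, Dhx58, Zbp1, Eif2ak2 and Gbp3, against 10.7% of all genes tested. In no member did both lie below, against 10% of all genes.

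In most members the LKO livers lay on opposite sides of the WT livers. LKO 2 was the highest of the 4 livers in 35 of the 39 members, where 41% of all genes had their highest value in that liver. LKO 1 was the lowest in 28 of the 39, beside 46.6% of all genes, and 26 members had LKO 2 above and LKO 1 below both WT livers at once, beside 24% of all genes. On the log2(FPKM + 0.1) scale used for every log2 difference here, which understates the change of low genes, a difference of more than 2-fold between the LKO livers, with LKO 2 the higher, was seen in 20 of the 39 members, against 9.61% of all genes tested. In the opposite direction it was seen in 1 member, Usp18, against 2.35% of all genes. The WT livers differed by more than 2-fold in 0 of the 39 members, against 3.59% of all genes, and within the set at most by 0.58 on the log2 scale, in Ifi35. These counts describe single livers, and no replicate of either LKO liver stands behind them.

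**Figure D1:**
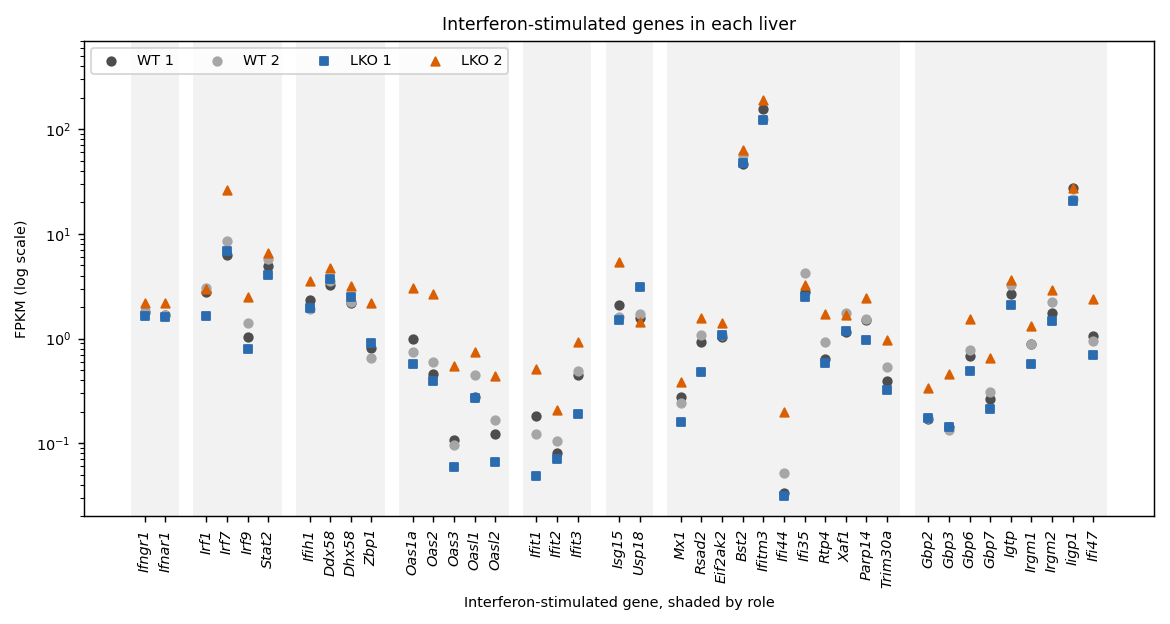
FPKM of the 40 members with an entry in the table, on a log axis, in WT 1 and WT 2 (dark and light grey circles), LKO 1 (blue squares) and LKO 2 (orange triangles), with genes in role groups marked by shading. The orange triangle is the top point in 36 of the 40 columns, and the blue square is the lowest point of most columns of the OAS, IFIT and GTPase groups.

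LKO 2 was the highest liver for 3 of the 4 transcription factors of the response. Irf7, which drives the amplification of type I interferon, was at 6.29 and 8.57 FPKM in WT 1 and WT 2, 6.83 FPKM in LKO 1 and 26.2 FPKM in LKO 2. LKO 1 lay between the WT livers while LKO 2 was 3.83-fold above LKO 1, with a 95% counting interval of 3.59 to 4.09 on about 4251 and 1194 reads. Such intervals cover counting error only, not the difference between mice. The log2 fold change between the genotypes was 0.86 ± 0.50 (SE, limma, adjusted p = 1). Irf9, the DNA-binding subunit of the complex that holds Stat2, reached 1.03 and 1.41 FPKM in WT 1 and WT 2, 0.793 FPKM in LKO 1 and 2.52 FPKM in LKO 2. Stat2 stood at 4.91 and 5.70 FPKM in WT 1 and WT 2, 4.02 FPKM in LKO 1 and 6.63 FPKM in LKO 2. In both genes the LKO livers lay on opposite sides of the WT livers, with genotype differences of 0.23 ± 0.45 and −0.03 ± 0.36 on the log2 scale. Irf1, a direct target of interferon-gamma signalling that carries the gamma-activated site shown above, was measured at 2.76 and 3.07 FPKM in WT livers 1 and 2, 1.66 FPKM in LKO 1 and 2.96 FPKM in LKO 2. Here LKO 1 was low and LKO 2 lay within the WT values. The entries for Irf7 and Irf9 overlap other protein-coding genes, Phrf1 on the opposite strand and Rnf31 on the same strand. Irf1 overlaps the coding gene Gm17334 on the opposite strand, and whether the reads were counted by strand is not given in the sources used here.

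The receptor chains hardly varied. Ifngr1, the ligand-binding chain for interferon-gamma, reached 1.78 and 1.79 FPKM in WT 1 and WT 2, 1.64 FPKM in LKO 1 and 2.19 FPKM in LKO 2. Ifnar1, a chain of the type I receptor, stood at 1.67 and 1.69 FPKM in WT 1 and WT 2, 1.61 FPKM in LKO 1 and 2.18 FPKM in LKO 2. Both kept the same order of livers as most targets, but with ratios between LKO 2 and LKO 1 of only 1.34 and 1.36.

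The cytosolic sensors of foreign nucleic acid were the role group in which LKO 1 was the lowest liver for 0 of 4 members. Ddx58, which encodes the RNA helicase RIG-I, was measured at 3.25 and 3.56 FPKM in WT livers 1 and 2, 3.67 FPKM in LKO 1 and 4.68 FPKM in LKO 2. Dhx58, the related helicase LGP2, reached 2.20 and 2.21 FPKM in WT 1 and WT 2, 2.47 FPKM in LKO 1 and 3.18 FPKM in LKO 2. Zbp1, a sensor of Z-form nucleic acid, stood at 0.818 and 0.647 FPKM in WT 1 and WT 2, 0.908 FPKM in LKO 1 and 2.17 FPKM in LKO 2. In these 3 genes both LKO livers lay above both WT livers, an order seen in 10.7% of all genes tested. Their LKO minus WT differences were 0.28 ± 0.34, 0.33 ± 0.34 and 0.87 ± 0.41 on the log2 scale, none of them past the threshold. Ifih1, the RNA helicase MDA5, was measured at 2.31 and 1.92 FPKM in WT livers 1 and 2, 1.94 FPKM in LKO 1 and 3.55 FPKM in LKO 2, so its LKO 1 value lay within the WT range.

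The OAS family, enzymes that make the second messenger which activates RNase L, together with their OASL relatives, had the widest gap between the LKO livers of all role groups. All 5 members were highest in LKO 2 and lowest in LKO 1, and the family summed to 1.96 and 2.05 FPKM in the WT livers, 1.36 FPKM in LKO 1 and 7.43 FPKM in LKO 2. Oas2 reached 0.455 and 0.591 FPKM in WT 1 and WT 2, 0.394 FPKM in LKO 1 and 2.66 FPKM in LKO 2. Its ratio of 6.75 between the LKO livers had a counting interval of 5.57 to 8.24, and its genotype difference was 0.91 ± 0.58 on the log2 scale. Oas1a, whose promoter is printed above, stood at 0.996 and 0.750 FPKM in WT 1 and WT 2, 0.570 FPKM in LKO 1 and 3.04 FPKM in LKO 2. Reads of Oas1a may be shared with near-identical Oas1 copies.

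Oas3 was measured at 0.107 and 0.0955 FPKM in WT livers 1 and 2, 0.0596 FPKM in LKO 1 and 0.549 FPKM in LKO 2, from about 22 reads in LKO 1 and 188 in LKO 2. The ratio of 9.20 has a counting interval of 5.90 to 15.0, wide because of the few reads in LKO 1. Oasl2 reached 0.123 and 0.168 FPKM in WT 1 and WT 2, 0.0655 FPKM in LKO 1 and 0.437 FPKM in LKO 2, and Oasl1 stood at 0.278, 0.448, 0.270 and 0.745 FPKM in the same order. Over the 5 genes, the median difference between LKO 2 and LKO 1 was 2.02 on the log2 scale.

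The IFIT proteins bind RNA and block the translation of viral messages, and their genes lie close together on chromosome 19. Ifit1 stood at 0.181 and 0.123 FPKM in WT 1 and WT 2, 0.0482 FPKM in LKO 1 and 0.513 FPKM in LKO 2. This was the highest ratio between the LKO livers among the members, 10.7, with a counting interval of 5.56 to 22.9 on about 10 and 99 reads. Ifit3 was measured at 0.453 and 0.495 FPKM in WT livers 1 and 2, 0.191 FPKM in LKO 1 and 0.924 FPKM in LKO 2, and Ifit2 at 0.0809, 0.105, 0.0704 and 0.206 FPKM. All 3 had LKO 2 above and LKO 1 below both WT livers, and their genotype differences, from −0.07 to 0.27 on the log2 scale, were smaller than their SEs of 0.40 to 0.53.

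Isg15 encodes a ubiquitin-like protein that is coupled to other proteins in interferon-treated cells, and Usp18 the protease that removes it and also dampens signalling at the type I receptor. Isg15 reached 2.11 and 1.61 FPKM in WT 1 and WT 2, 1.51 FPKM in LKO 1 and 5.37 FPKM in LKO 2, a ratio between the LKO livers of 3.57 with a counting interval of 2.81 to 4.58. Usp18 stood at 1.56 and 1.70 FPKM in WT 1 and WT 2, 3.12 FPKM in LKO 1 and 1.43 FPKM in LKO 2. It was the only one of the 39 members with its highest value in LKO 1 and its lowest in LKO 2, at a ratio of 0.459 with a counting interval of 0.384 to 0.546. The entry for Usp18 overlaps a long non-coding RNA on the opposite strand, Gm44148. Entries of members that were highest in LKO 2, among them Oasl1, Dhx58, Eif2ak2 and Trim30a, also overlap non-coding RNAs on the strand opposite to their own. The part of these overlaps in the values was not tested.

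Among the other type I effectors, the most abundant members differed by less than 2-fold between any of the livers. Ifitm3, a membrane protein that blocks viral entry, was measured at 156 and 126 FPKM in WT livers 1 and 2, 123 FPKM in LKO 1 and 192 FPKM in LKO 2. Bst2, or tetherin, which holds budding virus at the cell surface, reached 46.3 and 56.9 FPKM in WT 1 and WT 2, 47.9 FPKM in LKO 1 and 62.9 FPKM in LKO 2. Their LKO 2 values were 1.56-fold and 1.31-fold above LKO 1, and together they made up most of the summed level of the set, which was 280 and 261 FPKM in the WT livers, 236 FPKM in LKO 1 and 381 FPKM in LKO 2.

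Rsad2, the antiviral enzyme viperin, stood at 0.929 and 1.07 FPKM in WT 1 and WT 2, 0.476 FPKM in LKO 1 and 1.56 FPKM in LKO 2. Parp14, an ADP-ribosyltransferase, was measured at 1.50 and 1.53 FPKM in WT livers 1 and 2, 0.974 FPKM in LKO 1 and 2.43 FPKM in LKO 2. Rtp4 was at 0.644, 0.931, 0.585 and 1.73 FPKM and Trim30a at 0.390, 0.538, 0.326 and 0.961 FPKM in WT 1, WT 2, LKO 1 and LKO 2. In these 4 genes LKO 2 was 2.50-fold to 3.27-fold above LKO 1, and the WT livers lay between the LKO livers. Rtp4 overlaps Masp1, a complement protease gene, on the opposite strand.

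Mx1, a dynamin-like GTPase that restricts influenza virus, reached 0.277 and 0.244 FPKM in WT 1 and WT 2, 0.159 FPKM in LKO 1 and 0.383 FPKM in LKO 2. Eif2ak2, the kinase PKR, stood at 1.04 and 1.08 FPKM in WT 1 and WT 2, 1.09 FPKM in LKO 1 and 1.40 FPKM in LKO 2. It was the member of this group in which the genotypes did not overlap, with an order of livers seen in 10.7% of all genes tested. Ifi35 was at 2.77, 4.19, 2.51 and 3.23 FPKM and Xaf1 at 1.16, 1.77, 1.17 and 1.69 FPKM in the order given above. In both of these WT 2 was the highest liver, and their WT livers differed by 0.58 and 0.57 on the log2 scale. Ifi44 was below the level tested, at 0.0334 and 0.0524 FPKM in the WT livers, 0.0315 FPKM in LKO 1 and 0.197 FPKM in LKO 2, with about 10 and 58 reads in the LKO livers.

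The interferon-gamma-inducible GTPases comprise the guanylate-binding proteins and the immunity-related GTPases, which act on the vacuoles of intracellular pathogens, and all 9 were highest in LKO 2. Ifi47 was measured at 1.06 and 0.950 FPKM in WT livers 1 and 2, 0.703 FPKM in LKO 1 and 2.38 FPKM in LKO 2, and Gbp6 at 0.687, 0.775, 0.486 and 1.55 FPKM in the same order. Gbp7 reached 0.265 and 0.307 FPKM in WT 1 and WT 2, 0.210 FPKM in LKO 1 and 0.655 FPKM in LKO 2. These 3 and Irgm1, at 0.880, 0.892, 0.574 and 1.31 FPKM, had the LKO livers more than 2-fold apart with the WT livers between them. The entry named Gbp6 covers both Gbp6 and Gbp10 in the annotation, so its reads may belong to either. Ifi47 overlaps the coding gene Olfr56 on the same strand.

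Gbp3 stood at 0.143 and 0.135 FPKM in WT 1 and WT 2, 0.143 FPKM in LKO 1 and 0.457 FPKM in LKO 2. LKO 1, with about 30 reads against 31 in WT 1, thus barely exceeded the WT livers. Gbp2 was at 0.172, 0.174, 0.173 and 0.334 FPKM, with LKO 1 inside the WT range. Igtp was at 2.68, 3.24, 2.11 and 3.60 FPKM and Irgm2 at 1.74, 2.24, 1.48 and 2.88 FPKM, and since these entries overlap on the same strand their reads cannot be fully told apart. Iigp1, by level the leading member of the group, was measured at 27.5 and 21.3 FPKM in WT livers 1 and 2, 20.5 FPKM in LKO 1 and 27.7 FPKM in LKO 2, where LKO 2 and WT 1 were nearly level. Its genotype difference was −0.02 ± 0.34 on the log2 scale.

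**Figure D2:**
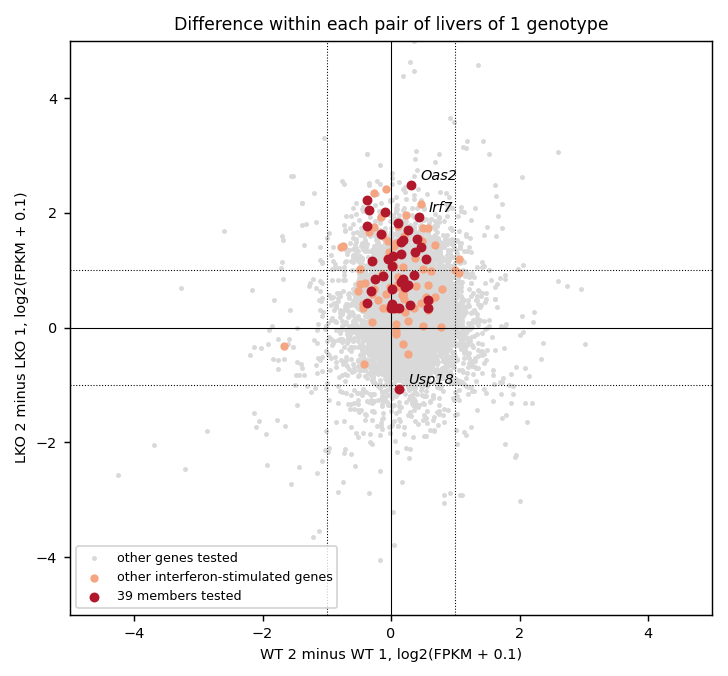
Difference between the WT livers (x axis) and between the LKO livers (y axis) on the log2(FPKM + 0.1) scale for the 39 members (red), 76 other interferon-stimulated genes (light red) and all other genes tested (grey), with dotted lines at a 2-fold difference. The members stay within the dotted lines along x and extend above the upper line along y, where 20 of them lie, while Usp18 lies below the lower line.

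Over the 39 members, the median difference between LKO 2 and LKO 1 was 1.07 on the log2 scale, and the median between WT 2 and WT 1 was 0.12. All genes tested had medians of 0.30 and 0.27 for the same differences, so a part of the gap between the libraries was shared by the whole table. Set against the mean of the WT livers, the members' median was −0.33 in LKO 1 and 0.67 in LKO 2, beside −0.17 and 0.12 for all genes. After median-ratio rescaling, which brings the median of all genes to 0.00, the members' median difference between the LKO livers was 0.78. LKO 2 was then the highest liver in 34 members, beside 29.9% of all genes, LKO 1 was the lowest in 22, beside 30.1%, and 15 members exceeded 2-fold, beside 4.97%. LKO 2 was thus highest in most members under both scalings, while the low position of LKO 1 was less common after rescaling, at a median of −0.18 against the WT mean.

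The gap was present in members at low and at higher level. In the 14 tested members with a mean under 1 FPKM the median difference between the LKO livers was 1.30, and in the 25 with a mean of at least 1 FPKM it was 0.74, beside 0.33 and 0.28 for all genes tested in the same ranges. The 15 members with the response element in their promoter window had a median of 1.29, ranging from 0.39 to 2.23, and the 16 without it 0.82, ranging from 0.34 to 1.92. These ranges overlapped, and Irf7, at the top of the second range, had no match to either element in its window.

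**Figure D3:**
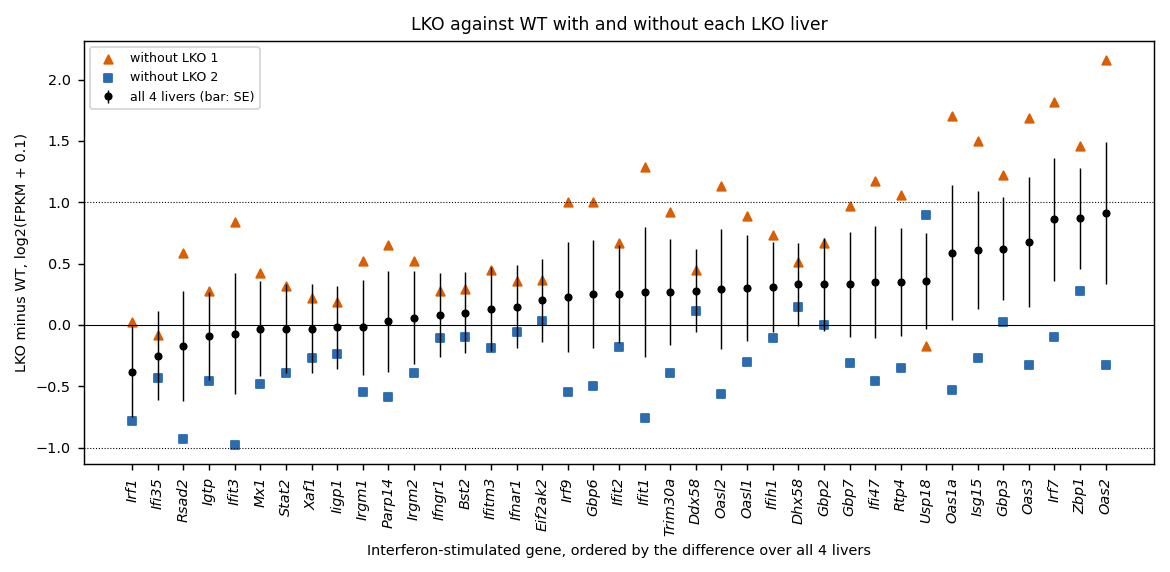
LKO minus WT difference of the 39 tested members on the log2(FPKM + 0.1) scale over all 4 livers (black, bars are the SE from limma), without LKO 1 (orange triangles) and without LKO 2 (blue squares), with dotted lines at a 2-fold difference. The orange and blue points lie on opposite sides of 0 for most members, and the black points between them stay inside the dotted lines.

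The genotype comparison came out differently with each LKO liver alone. Without LKO 1, 12 of the 39 members passed the threshold, all with a higher level in the remaining LKO liver, where 3.26% of all genes did. They were Irf7, Irf9, Zbp1, Oas1a, Oas2, Oas3, Oasl2, Ifit1, Isg15, Rtp4, Gbp3 and Ifi47, with log2 differences from 1.00 for Irf9 to 2.16 for Oas2. In this fit the spread comes from the WT livers alone, and the lone LKO liver is assumed to vary like them. Over the members, however, the median absolute log2 difference was 1.07 between the LKO livers and 0.21 between the WT livers. Passing the threshold here thus describes 1 liver and not the genotype. Without LKO 2, 0 of the 39 members passed, beside 3.64% of all genes, 6 had a higher LKO value, and the median was −0.33. With WT 1 or WT 2 left out, 0 members passed, beside 1.87% and 0.632% of all genes. The members whose difference stayed above 0 whichever liver was left out were Ddx58, Dhx58, Zbp1, Eif2ak2 and Gbp3. These are the members with both LKO values above both WT values, an order seen in 10.7% of all genes tested. With that order, leaving out a liver cannot change the sign, so this is no separate result.

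The remaining genes of the pathway were examined as lists. Of 21 interferon ligand genes, 20 were at 0 in all 4 livers and none reached the level tested. The exception, Ifnz, was at 0.0423 and 0.0428 FPKM in WT 1 and WT 2, 0.0175 FPKM in LKO 1 and 0.0565 FPKM in LKO 2. The receptor chains, kinases and STATs outside the set had 0 of 8 genes past the threshold and a median difference between the LKO livers of 0.29, close to that of all genes.

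By level, the leading genes of the receptor and kinase list were Stat3, Jak1 and Ifnar2, at LKO minus WT differences of 0.40 ± 0.32, 0.24 ± 0.33 and 0.15 ± 0.34 on the log2 scale. The other interferon regulatory factors had 0 of 4 genes past the threshold and LKO 2 highest in 0 of 4, with Irf2 at −0.01 ± 0.33 and Irf3 at −0.51 ± 0.40. Among negative regulators 0 of 6 passed, and the median difference between the LKO livers was 0.01. Of these, Socs3, which inhibits Jak kinases, stood at 19.3 and 13.2 FPKM in WT 1 and WT 2, 15.7 FPKM in LKO 1 and 17.5 FPKM in LKO 2. The phosphatases Ptpn6 and Ptpn2 differed between the genotypes by −0.06 ± 0.41 and 0.26 ± 0.35.

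Among other sensing genes, 1 of 11 passed the threshold, beside 0.98% of all genes. Tlr7, the endosomal receptor for single-stranded RNA, was measured at 0.124 and 0.157 FPKM in WT livers 1 and 2, 0.204 FPKM in LKO 1 and 0.898 FPKM in LKO 2. Its log2 fold change was 1.20 ± 0.48 (SE, limma, unadjusted p = 0.0265, adjusted p = 1), and most of it came from LKO 2. The adaptors Myd88 and Mavs and the kinase Tbk1 differed by 0.15 ± 0.34, 0.00 ± 0.38 and 0.29 ± 0.34.

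A further 89 interferon-stimulated genes outside the set served as a comparison, of which 84 were found and 76 tested. LKO 2 was the highest liver in 62 of the 76, beside 41% of all genes tested. Their median difference was 0.74 between the LKO livers and 0.10 between the WT livers, beside 0.30 and 0.27 for all genes. At the threshold 1 was higher and 1 lower in the LKO livers, beside 0.98% of all genes in either direction. Ly6a, which encodes the surface protein Sca-1, reached 16.0 and 14.5 FPKM in WT 1 and WT 2, 30.6 FPKM in LKO 1 and 58.4 FPKM in LKO 2, a log2 fold change of 1.47 ± 0.37 (SE, limma, unadjusted p = 0.0014, adjusted p = 1). Unlike most members, Ly6a was above the WT livers in both LKO livers. Ifi27l2b stood at 2.1 and 1.71 FPKM in WT 1 and WT 2, 0.620 FPKM in LKO 1 and 0.983 FPKM in LKO 2, a log2 fold change of −1.18 ± 0.36 (SE, limma, unadjusted p = 0.00543, adjusted p = 1). The most abundant genes of this list that did not pass the threshold were Ifitm2, Lgals9 and Ly6e. Their differences were 0.01 ± 0.33, 0.23 ± 0.32 and 0.76 ± 0.36.

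**Figure D4:**
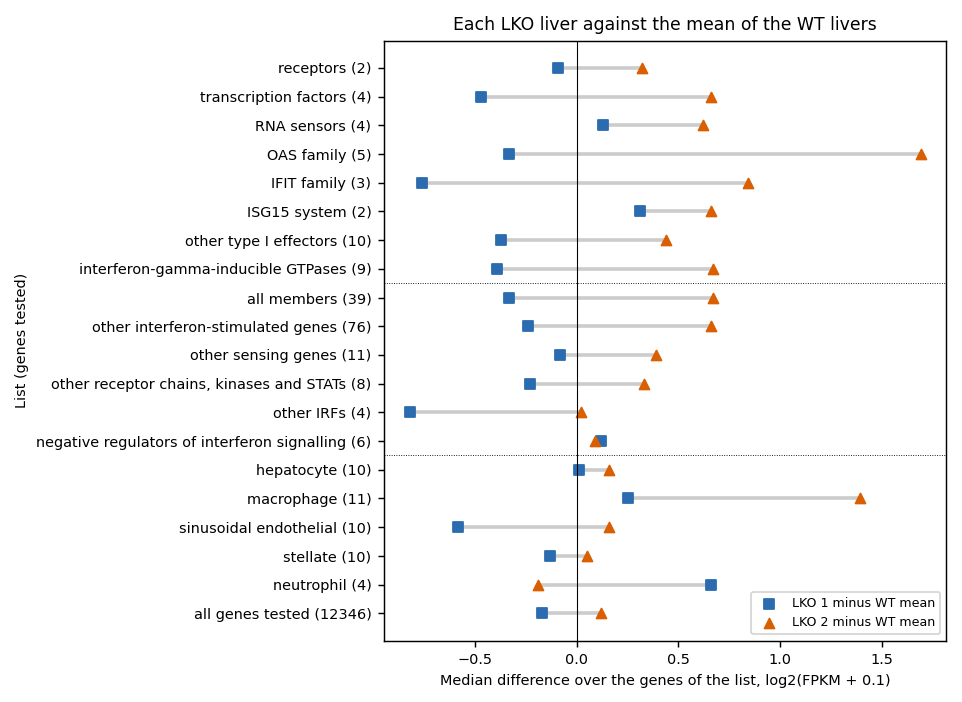
Median difference of LKO 1 (blue squares) and LKO 2 (orange triangles) from the mean of the WT livers on the log2(FPKM + 0.1) scale, for the role groups of the members (top), the other interferon lists (middle) and cell type markers with all genes tested (bottom), with the number of genes tested in parentheses. The OAS family reaches 1.69 in LKO 2, and macrophage markers are above 0 in both LKO livers, at 0.25 and 1.39.

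Whole liver holds several cell types, and in bulk RNA fewer cells of a type and less RNA per cell cannot be told apart. Hepatocyte markers, led by Alb with 12486 FPKM in WT 1, 10710 FPKM in WT 2 and 11975 and 12436 FPKM in LKO 1 and LKO 2, had a median difference between the LKO livers of 0.08 over 10 genes. Macrophage markers moved with LKO 2. All 11 of them were highest in that liver, and they summed to 48.8 and 49.9 FPKM in the WT livers, 63.2 FPKM in LKO 1 and 139 FPKM in LKO 2, with a median difference between the LKO livers of 1.08. In the genotype comparison 3 of the 11 passed the threshold, all higher in the LKO livers, beside 0.98% of all genes in either direction. Of the 11, 0 had an adjusted p under 0.05 by limma. Their median difference from the WT mean was 1.39 in LKO 2, so most of the genotype difference came from that liver. C1qa, a complement subunit made by macrophages and the most abundant of these markers, was measured at 12.0 and 11.7 FPKM in WT livers 1 and 2, 14 FPKM in LKO 1 and 27.1 FPKM in LKO 2. In LKO 1, by contrast, the median of the macrophage markers was 0.25 above the WT mean, where that of the interferon set was 0.33 below it. The part of macrophage content in the level of the interferon-stimulated genes was not tested.

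Sinusoidal endothelial markers had a median difference of 1.01 between the LKO livers but were highest in LKO 2 in 5 of 10 genes, with sums of 37.3 and 38.1 FPKM in the WT livers, 28.7 FPKM in LKO 1 and 38.2 FPKM in LKO 2. The sum in LKO 2 was close to the WT sums, but single markers went both ways there. Kdr and Clec4g were above both WT livers in LKO 2, and Lyve1 and Pecam1 were below both. Stellate markers differed by a median of 0.10 over 10 genes, with sums of 27.8 to 36.0 FPKM over the 4 livers, and cholangiocyte markers by −0.19 over 4. Neutrophil markers went the other way and also split the WT livers, with sums of 11.3 and 4.19 FPKM in WT 1 and WT 2, 16.1 FPKM in LKO 1 and 7.70 FPKM in LKO 2.

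Markers of the remaining immune cells were at low levels, and their sums were highest in LKO 2. The level tested was reached by 3 of 11 T and NK cell markers found, 3 of 7 monocyte and dendritic cell markers and 1 of 5 B cell markers. The T and NK cell markers summed to 0.590 and 0.816 FPKM in the WT livers, 0.895 FPKM in LKO 1 and 1.69 FPKM in LKO 2. Markers of monocytes and dendritic cells summed to 0.691, 0.788, 0.642 and 1.57 FPKM over 7 genes, and B cell markers to 0.196, 0.380, 0.260 and 0.597 FPKM over 5. Plasmacytoid dendritic cells, the main producers of type I interferon, had 1 of 5 markers at the level tested, and the sum was 0.364 and 0.501 FPKM in the WT livers, 0.305 FPKM in LKO 1 and 0.517 FPKM in LKO 2. The marker tested was Tcf4, at 0.339, 0.426, 0.285 and 0.448 FPKM in the same order, so the sums mostly follow this 1 gene. Of the other markers, Siglech was at 0.00537, 0, 0.00556 and 0.0180 FPKM, and Cox6a2 was listed at 0 in all 4 livers. Ccr9, at 0.00583, 0.0177, 0 and 0.00325 FPKM, and Klk1, at 0.0141, 0.0571, 0.0146 and 0.0472 FPKM, were highest in WT 2. The parts of these cell types, too, were not tested.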

How the data were processed

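Whole-liver RNA-seq of 2 WT and 2 Brg1 LKO mice after ethanol feeding was analysed, with groups from the sample labels. According to the paper's methods, the authors prepared stranded TruSeq libraries, trimmed reads with Trimmomatic, aligned them with HISAT2 to GRCm38, computed FPKM with Cufflinks, and tested HTSeq counts with DESeq. The submitters' processing notes list HISAT2 2.0.4 and StringTie 2.1.4, and the labels name a BGIseq protocol. The authors deposited FPKM values, the only unit used here, with no stated normalization between libraries. FPKM divides by library total, so a change in abundant genes shifts all others.

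Gene symbols turned into dates (27) were restored, and 83 entries shared a symbol. Transcript lengths from GENCODE M21, found for 98.3% of entries, gave the FPKM worth of 1 read and estimated totals of 80912200 and 79876400 reads (WT) and 78153150 and 72586000 reads (LKO). Of values up to 20 reads, 88.5% to 89.5% came within 0.1 of a whole read, so reads of single genes are estimates. Intervals of ratios are exact 95% counting intervals.

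The test, limma 3.58.1 under R 4.3.3 (eBayes with trend), was run on log2(FPKM + 0.1) where the mean was 0.1 FPKM or more, with Benjamini-Hochberg adjustment over all 12346 genes. The procedure was tested on simulated data. The threshold was that of the study. Other computations used Python 3.11.15. Alternatives were other pseudocounts, filters and scalings, eBayes without trend, a replicate block, and leaving out each liver.

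The members and lists were chosen with earlier results of these data known. Named were every member, Smarca4 and the genes of each pathway list past the threshold. Where fewer than 3 passed, the 3 with the highest mean among the others were added. The most abundant marker was named for the hepatocyte, macrophage and plasmacytoid dendritic cell lists. The counts by single liver, Ifnz, Siglech, Ccr9, Klk1, Cox6a2 and the endothelial markers named were chosen after values were seen. Values of some listed genes are not reported here.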

Additional observations from a re-analysis of the deposited data

How the results depend on the processing

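The count of 0 members past the threshold was the same under every other pseudocount, filter and scaling, without the trend, with a replicate block and without either WT liver. The number of all genes past it, 121, became 18 with a pseudocount of 1, 167 with one of 0.01, 80 with no filter, 68 when a mean of 1 FPKM was required, and 108 under the replicate block. WT and LKO livers of the same number deviated from their group means with r = 0.03 across genes, the block changed no member's call, and the labels do not say that the numbers pair mice. Members whose LKO and WT values lay apart numbered 10 after median-ratio rescaling (8 higher, 2 lower, beside 14.8% and 14.2% of all genes) and 8 after quantile normalization (6 higher, 2 lower, beside 13.5% and 15.9%), against 5, and members with a higher LKO mean 18 of the 25 left by the filter at 1 FPKM. Differences near 0 changed sign in Iigp1 (0.01), Irgm1 (0.01) and Xaf1 (0.00) by median-ratio rescaling, in Irgm1 (0.03) and Xaf1 (0.00) by quantile normalization, and in Ifit3 (0.04), Irgm1 (0.02) and Mx1 (0.01) with a pseudocount of 1. The cause of these changes was not tested.

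Leaving out each liver in turn gave 78 to 552 genes past the threshold, 0 to 12 members past it, 6 to 37 members with a higher LKO mean, and a median of −0.33 to 0.67. The extremes for the members came from leaving out LKO 2 and LKO 1, except in Ifi35 and Xaf1, where they came from leaving out WT 1 and WT 2, and 34 members changed sign at least once. In the receptors, the range was −0.11 to 0.28 for Ifngr1 and −0.06 to 0.36 for Ifnar1. In the transcription factors, the range was −0.78 to 0.02 for Irf1, −0.10 to 1.82 for Irf7, −0.55 to 1.00 for Irf9 and −0.39 to 0.32 for Stat2. In the sensors, the range was −0.11 to 0.73 for Ifih1. In the OAS family, the range was −0.53 to 1.70 for Oas1a, −0.33 to 2.16 for Oas2, −0.33 to 1.69 for Oas3, −0.30 to 0.89 for Oasl1 and −0.56 to 1.13 for Oasl2. In the IFIT family, the range was −0.76 to 1.29 for Ifit1, −0.18 to 0.67 for Ifit2 and −0.98 to 0.84 for Ifit3. In the ISG15 system, the range was −0.27 to 1.50 for Isg15 and −0.17 to 0.90 for Usp18. In the other type I effectors, the range was −0.48 to 0.42 for Mx1, −0.93 to 0.59 for Rsad2, −0.10 to 0.29 for Bst2, −0.19 to 0.45 for Ifitm3, −0.54 to 0.04 for Ifi35, −0.35 to 1.06 for Rtp4, −0.31 to 0.26 for Xaf1, −0.59 to 0.65 for Parp14 and −0.39 to 0.92 for Trim30a. In the GTPases, the range was −0.00 to 0.67 for Gbp2, −0.50 to 1.00 for Gbp6, −0.31 to 0.97 for Gbp7, −0.46 to 0.28 for Igtp, −0.55 to 0.52 for Irgm1, −0.39 to 0.52 for Irgm2, −0.24 to 0.19 for Iigp1 and −0.46 to 1.17 for Ifi47. With 2 livers a group, depth limits Ifit1, Ifit2, Oas3, Oasl2 and Ifi44, which had 10 to 22 reads in LKO 1.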
